A study of Rattus norvegicus with 13 samples.

Results

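The enzymes that make, recycle and spend UDP-N-acetylglucosamine (UDP-GlcNAc) were followed in rat articular chondrocytes that received glucosamine, the cytokine IL-1β, both or neither. The list held 10 genes, taken by their place in the pathway: Gfpt1, Gfpt2, Gnpnat1, Pgm3, Uap1, Nagk, Amdhd2, Gnpda1, Gnpda2 and Ogt. A gene was measured where a probe set, the group of short oligonucleotides that reports a transcript on the array, was annotated to it and to no other gene. This held for 8 of the 10 genes, among 13748 genes measured in that way. No probe set in the annotation used here named Gfpt1, and the probe set that named Uap1 also named a related gene, so these genes have no value here. The 8 measured genes had 10 probe sets, of which 9 were above the signal floor on all 13 arrays. Pgm3 and Ogt had a pair of probe sets each, and the one with the higher mean signal represented the gene in the counts.

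The hexosamine pathway branches from glycolysis. Gfpt1 and Gfpt2 are alternative forms of the enzyme that transfers an amide nitrogen from glutamine to fructose 6-phosphate, the step at which the pathway is thought to be controlled, and which yields glucosamine 6-phosphate. Gnpnat1, Pgm3 and Uap1 then acetylate, isomerize and activate the sugar to UDP-GlcNAc, the donor for N-glycans, hyaluronan, heparan and keratan sulfate and for the O-GlcNAc that Ogt places on nuclear and cytosolic proteins. Nagk returns free GlcNAc to the pathway, whereas Amdhd2 and then Gnpda1 or Gnpda2 run it backwards, by deacetylation and deamination, to fructose 6-phosphate. Glucosamine from the medium is phosphorylated by hexokinases and so joins the pathway after the Gfpt step. Chondrocytes use UDP-GlcNAc for the hyaluronan and the glycosaminoglycan chains of cartilage matrix.

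All cells were second-passage chondrocytes from femoral head cartilage of male Wistar rats aged 2 months, pooled and seeded into flasks, with 1 flask per array. Untreated cultures gave 3 arrays (replicates a to c), 20 mM glucosamine for 20 hours gave 2 (a and b), 10 ng/ml IL-1β for 14 hours gave 4 (a to d), and glucosamine given 6 hours before, and then together with, IL-1β for 14 hours gave 4 (a to d). Every flask came from the same pool of cells, so the p-values measure the spread between flasks and not between animals. The concentrations of both agents were above those of the joint, and passaged chondrocytes lose part of their cartilage phenotype.

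The values are linear signals, 1 per probe set and array. The median signal of an array was between 20.8 and 24.6 on 11 arrays, and it was 37.9 and 38.7 on replicate d of the IL-1β cultures and replicate d of the cultures with both agents. These d arrays are marked in the plots of single arrays, and calls of pathway genes and Oga that changed without both of them are given with both values. Calls of marker genes and of all other genes are from all arrays only, and their dependence on the d arrays was not examined. Of 6 chondrocyte markers, 5 were measured, and their summed signal was 7075 to 7975 in untreated cultures, 5187 to 5428 with glucosamine, 3747 to 4589 with IL-1β and 3972 to 4848 with both. All 5 (Acan, Col2a1, Col9a1, Comp and Hapln1) were called lower with IL-1β and with both agents, and Col9a1 and Hapln1 were called lower with glucosamine. Over all probe sets tested, 7.14% were called higher and 7.56% lower with glucosamine. The shares were 11.1% and 13% with IL-1β, and 11.5% and 12.4% with both. Of 5 leukocyte markers, Cd68, Csf1r, Adgre1 and Cd163 were at the floor on all untreated arrays, and the summed signal was 12.1 to 14.4 there, 41.9 to 49.5 with glucosamine, 204 to 241 with IL-1β and 76.6 to 81.7 with both. Cd68 was the member of that list called higher with IL-1β and with both agents, and none was called with glucosamine. Of 4 endothelial markers, 3 were measured, with a summed signal of 46.5 to 64.1 in untreated cultures, 51.9 to 55.1 with glucosamine, 89.4 to 187 with IL-1β and 54.8 to 136 with both. Pecam1 and Tek were called higher with IL-1β, and none of the 3 was called with glucosamine or with both. The summed signal of 4 fibroblast markers, which cultured chondrocytes share, was 7859 to 8909, 7390 to 8188, 7036 to 8388 and 7351 to 8999 in the same order. Pdgfra was called higher and Col3a1 lower with IL-1β and with both agents, Thy1 was called lower with both, and none was called with glucosamine. The part of these marker shifts in the results below was not tested, and in bulk RNA fewer cells of a type and less RNA per cell cannot be told apart.

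Glucosamine alone raised 6 of the 8 measured genes and lowered none. The genes that rose were Amdhd2, Gnpda1, Gfpt2, Gnpnat1, Ogt and Nagk, by 2.93-fold down to 1.26-fold, and Pgm3 and Gnpda2 did not pass the test. Changes were called with limma, fitted to all 29263 probe sets above the floor, at a Benjamini-Hochberg adjusted p under 0.05. Over all probe sets tested, 7.14% were called higher and 7.56% lower with glucosamine, and the median log2 fold change of the 8 genes was 0.61. All probe sets tested include unannotated ones and ones near the floor, whereas each gene is represented by its brightest probe set. With the floor at the 40th percentile of all values, 17.5% were called in either direction with glucosamine, against 14.7% in the main fit.

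IL-1β alone raised 4 of the 8 genes and lowered none. Gfpt2 rose 13.5-fold, and Gnpda2, Gnpnat1 and Nagk rose by 1.36-fold or less. Over all probe sets tested, 11.1% were called higher and 13% lower with IL-1β. The median log2 fold change was 0.20 for the 8 genes, where it was 0.10 over all probe sets tested. Without both d arrays the same 4 genes rose and Pgm3 and Ogt were called lower, and the counts of the other comparisons were as with all arrays. In that fit 35.1% of all probe sets tested were called with IL-1β in either direction, against 24.1% with all arrays, and their median log2 fold change was 0.

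With both agents, 6 genes were higher than in untreated cultures and none was lower, against 11.5% higher and 12.4% lower of all probe sets tested. These were the genes that had passed the test with glucosamine alone, but the comparisons with untreated cultures share the same 3 untreated arrays. Compared with IL-1β alone, cultures with both agents had 4 genes higher (Amdhd2, Gnpda1, Ogt and Gnpnat1) and Gfpt2 lower, where 11.9% of all probe sets were called higher and 11.4% lower. Compared with glucosamine alone, Gfpt2 was higher and no gene was lower, where 0.933% of all probe sets were higher and 0.861% lower. The interaction is the log2 effect of IL-1β in cultures with glucosamine minus that in cultures without it. It was called below 0 for 3 genes (Gfpt2, Gnpnat1 and Nagk) and above 0 for none, where 4.57% and 3.98% of all probe sets were so called.

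**Figure D1:**
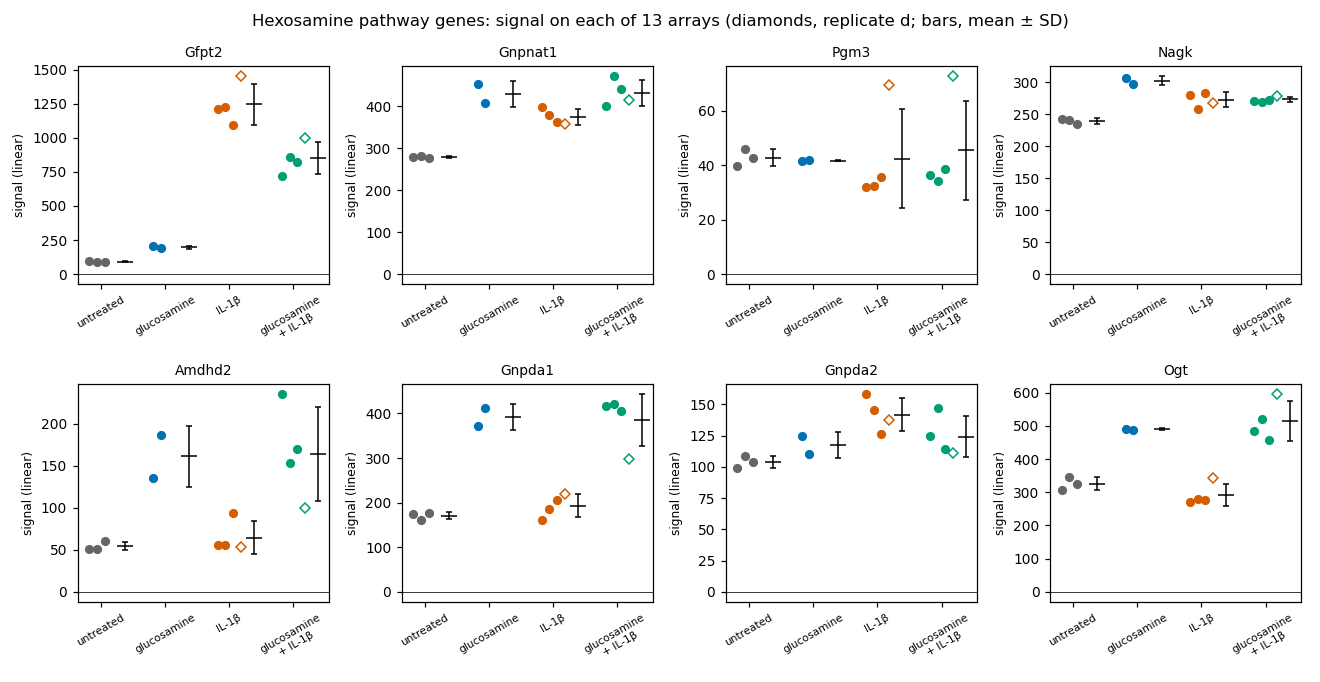
Linear signal of the 8 measured hexosamine pathway genes on each of the 13 arrays, 1 panel per gene with its own vertical axis from 0. Points are arrays in the order a to d, open diamonds are the replicate d arrays, and bars are the group mean ± SD. Gfpt2 lies between 1091 and 1452 on the IL-1β arrays and between 89.1 and 96.0 on the untreated arrays, and Amdhd2, Gnpda1 and Ogt are high in the groups with glucosamine.

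Gfpt2, the measured form of the entry enzyme, was the gene of the list with the largest response to IL-1β. Its signal on probe set 1377761_at was 96.0, 89.1 and 89.9 on the untreated arrays a to c and 204 and 188 on the glucosamine arrays a and b. It was 1208, 1229, 1091 and 1452 on the IL-1β arrays a to d, and 717, 863, 823 and 998 on the arrays with both agents. The 4 groups did not overlap in any pair: untreated cultures were lowest, followed by glucosamine, both agents and IL-1β.

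The rise of Gfpt2 over untreated cultures was 13.5-fold with IL-1β (log2 3.76 ± 0.11 SE, limma adjusted p = 9.89e-10), 2.14-fold with glucosamine (1.10 ± 0.13, adjusted p = 0.000171) and 9.21-fold with both (3.20 ± 0.11, adjusted p = 5.86e-09). The rise with glucosamine alone did not pass the methods' test. In limma, the cultures with both agents had less Gfpt2 than those with IL-1β, at 0.682-fold (log2 -0.55 ± 0.10, adjusted p = 0.00203). The log2 response to IL-1β was 2.11 in cultures with glucosamine, 56.1% of the 3.76 in cultures without it. The interaction was -1.65 ± 0.17 (adjusted p = 7.6e-05). Without both d arrays these values were 12.8-fold for IL-1β, 8.71-fold for both agents and -1.65 for the interaction.

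Gnpnat1, which acetylates glucosamine 6-phosphate, the step towards UDP-GlcNAc at the branch point where Gnpda1 and Gnpda2 act in the other direction, was higher in all 3 treated groups. Its signal on probe set 1375530_at was 279, 281 and 277 on the untreated arrays and 453 and 408 on the glucosamine arrays. It was 398, 381, 362 and 357 on the IL-1β arrays and 402, 472, 441 and 416 on the arrays with both agents. Every treated array was above every untreated array, the arrays with both agents overlapped those with glucosamine, and the IL-1β arrays lay just below both.

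Gnpnat1 rose 1.54-fold with glucosamine (log2 0.62 ± 0.08, limma adjusted p = 0.00021), 1.34-fold with IL-1β (0.42 ± 0.07, adjusted p = 0.00048) and 1.55-fold with both agents (0.63 ± 0.07, adjusted p = 2.29e-05). The effects did not add on the log2 scale: the interaction was -0.42 ± 0.10 (adjusted p = 0.022). The difference between both agents and IL-1β alone was small, at 1.15-fold (0.21 ± 0.06, adjusted p = 0.0275), and it missed the threshold in 7 of 23 alternative analyses (adjusted p from 0.019 to 0.087): a common 75th percentile, no variance trend, and fits without replicate b or c of both agents or without IL-1β replicate b, c or d. The interaction missed it in 5 of 22 (adjusted p from 0.0109 to 0.146): no variance trend and the fits without any 1 of the untreated arrays or without glucosamine replicate a.

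Pgm3, the mutase that moves the phosphate of N-acetylglucosamine 6-phosphate to position 1, passed no test. Its brighter probe set, 1382103_at, gave 39.6, 46.0 and 42.5 on the untreated arrays and 41.5 and 41.7 on the glucosamine arrays. It gave 31.9, 32.3, 35.6 and 69.6 on the IL-1β arrays and 36.4, 34.0, 38.6 and 72.6 on the arrays with both agents. In both groups with IL-1β, replicate d was above all untreated arrays and the other 3 replicates were below them.

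The fold change of Pgm3 for IL-1β over untreated cultures was 0.937 with all arrays (log2 -0.09 ± 0.31, limma adjusted p = 0.865). Without both d arrays it was 0.779 (log2 -0.36 ± 0.11, adjusted p = 0.0325), so the call for a fall with IL-1β rests on which arrays are kept. Its second probe set, 1382762_at, was at or under the floor on all untreated and glucosamine arrays and above it on 3 arrays with IL-1β, 2 of which were the d arrays. The interval of the glucosamine effect on the brighter probe set, -0.86 to 0.79 on the log2 scale, leaves room for a change in either direction. Neither group of that comparison has a d array, but all groups share 1 estimate of the spread. Without both d arrays the effect was still -0.04, its SE was 0.13 in place of 0.38, and it did not pass (limma adjusted p = 0.943).

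Nagk, the kinase that salvages free GlcNAc, moved little but with a narrow spread. Its signal on probe set 1373939_at was 242, 241 and 234 on the untreated arrays and 307 and 297 on the glucosamine arrays. It was 281, 258, 284 and 268 on the IL-1β arrays and 272, 270, 273 and 279 on the arrays with both agents. No treated array fell below the untreated arrays, and the glucosamine arrays were the highest of all.

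Nagk rose 1.26-fold with glucosamine (log2 0.34 ± 0.06, limma adjusted p = 0.00163), 1.14-fold with IL-1β (0.19 ± 0.05, adjusted p = 0.0119) and 1.14-fold with both (0.19 ± 0.05, adjusted p = 0.0111). The interaction was -0.34 ± 0.07 (adjusted p = 0.0122), and it missed the threshold with quantile normalization, without the variance trend and without glucosamine replicate a (adjusted p from 0.00191 to 0.0874 over 22 alternatives). The 2 rises with IL-1β in the medium missed the threshold when the variance trend was left out (adjusted p = 0.0752 and 0.0721) and without untreated replicate c (0.0594 and 0.0556), and over all alternatives their adjusted p ranged from 0.00185 to 0.0752 and from 0.00174 to 0.0721.

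Amdhd2 and Gnpda1, which act one after the other to turn N-acetylglucosamine 6-phosphate into fructose 6-phosphate, were among the 3 genes of the list that rose over 2-fold with glucosamine, the third being Gfpt2. Amdhd2, the deacetylase (probe set 1374936_at), gave 51.6, 51.6 and 60.1 on the untreated arrays and 136 and 186 on the glucosamine arrays. It gave 55.5, 56.3, 93.4 and 53.7 on the IL-1β arrays and 235, 153, 170 and 99.6 on the arrays with both agents. All arrays with glucosamine were above all arrays without it, the narrowest gap being between replicate d with both agents (99.6) and IL-1β replicate c (93.4).

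Amdhd2 rose 2.93-fold with glucosamine (log2 1.55 ± 0.32, limma adjusted p = 0.00663). With both agents it was 2.89-fold over untreated cultures (1.53 ± 0.27, adjusted p = 0.00131) and 2.50-fold over IL-1β alone (1.32 ± 0.25, adjusted p = 0.00224). IL-1β alone gave 1.16-fold (0.21 ± 0.27, adjusted p = 0.632). Without glucosamine replicate b the rise with glucosamine was 1.32 on the log2 scale with an adjusted p of 0.0916 (0.00149 to 0.0916 over all alternatives), and it also missed the threshold in the methods' test.

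Gnpda1, the deaminase that follows (probe set 1372311_at), gave 174, 162 and 178 on the untreated arrays and 371 and 412 on the glucosamine arrays. It gave 162, 187, 206 and 220 on the IL-1β arrays and 416, 421, 405 and 298 on the arrays with both agents. As for Amdhd2, every array with glucosamine was above every array without it, and replicate d was the lowest of the arrays with both agents.

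Gnpda1 rose 2.29-fold with glucosamine (log2 1.19 ± 0.16, limma adjusted p = 0.000286). With both agents it was 2.23-fold over untreated cultures (1.16 ± 0.13, adjusted p = 4.46e-05) and 1.98-fold over IL-1β alone (0.99 ± 0.12, adjusted p = 9.24e-05). IL-1β alone gave 1.12-fold (0.17 ± 0.13, adjusted p = 0.443). These calls held in every alternative analysis run.

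The promoters of Amdhd2 and Gnpda1 are shown because these genes moved together. Each window runs from 250 bases before to 50 bases after the annotated start, 5′ to 3′ on the strand of the gene, from RefSeq (GRCr8). That of Amdhd2 is chr10:13700583-13700882 and that of Gnpda1 is chr18:30428581-30428880, both on the minus strand, and capitals mark CACGTG, the core of an E-box.
Amdhd2: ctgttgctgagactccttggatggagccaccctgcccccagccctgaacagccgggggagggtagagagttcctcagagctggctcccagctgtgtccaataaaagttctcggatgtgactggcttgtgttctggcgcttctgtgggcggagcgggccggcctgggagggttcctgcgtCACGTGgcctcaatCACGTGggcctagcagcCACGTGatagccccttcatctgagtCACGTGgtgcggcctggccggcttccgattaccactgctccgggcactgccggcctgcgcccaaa
Gnpda1: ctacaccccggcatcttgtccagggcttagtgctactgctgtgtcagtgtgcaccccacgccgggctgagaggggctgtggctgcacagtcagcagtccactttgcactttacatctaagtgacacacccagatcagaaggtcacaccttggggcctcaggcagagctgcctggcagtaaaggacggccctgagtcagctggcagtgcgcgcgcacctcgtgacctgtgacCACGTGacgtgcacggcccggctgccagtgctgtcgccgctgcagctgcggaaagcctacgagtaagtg

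CACGTG, which reads the same on both strands, occurred 4 times before the start of Amdhd2, beginning 71, 57, 40 and 15 bases upstream, and once in Gnpda1, beginning 19 bases upstream. Of 33469 promoter windows of this length, 6.42% held the hexamer and 9 held 4 or more copies. Promoter windows were listed for 6 of the 8 measured genes (all but Gfpt2 and Pgm3), and the windows of Gnpnat1, Nagk, Gnpda2 and Ogt held no CACGTG. Other motifs were searched on both strands: TGACGTG, a core of unfolded protein response elements, was in Gnpda1, where it overlaps the E-box by 2 bases, and in 1.81% of all windows. TGATGNAA, which C/EBP-ATF dimers bind, was in none of the 6 genes and in 3.98% of all windows, and TGACGTCA, the cAMP response element, was in none and in 1.83%. The endoplasmic reticulum stress element, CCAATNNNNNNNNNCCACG, was in none of the 6 and in 0.0657% of all windows. GGGCGG, the GC box, was in Amdhd2, Nagk and Ogt and in 33.1% of all windows. The motifs were picked after the gene values were seen, and a match describes letters, not binding.

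Gnpda2, the other deaminase, was called higher with IL-1β and not with glucosamine, and these effects were not compared by a test. Its signal on probe set 1373669_at was 99.2, 108 and 104 on the untreated arrays and 125 and 110 on the glucosamine arrays. It was 158, 145, 127 and 137 on the IL-1β arrays and 125, 147.1, 114 and 111 on the arrays with both agents. All IL-1β arrays were above the untreated arrays, and the group with both agents spanned the range between them.

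Gnpda2 rose 1.36-fold with IL-1β (log2 0.45 ± 0.11, interval 0.21 to 0.69, limma adjusted p = 0.01), a call that the methods' test did not make. Its glucosamine effect was 1.13-fold (0.18 ± 0.13, adjusted p = 0.548) with an interval of -0.11 to 0.46 on the log2 scale, which overlaps the interval of its IL-1β effect and lies below the glucosamine interval of Gnpda1, 0.85 to 1.54. The difference between the paralogues was not tested. With both agents Gnpda2 was 1.19-fold over untreated cultures (0.25 ± 0.11, adjusted p = 0.133).

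**Figure D2:**
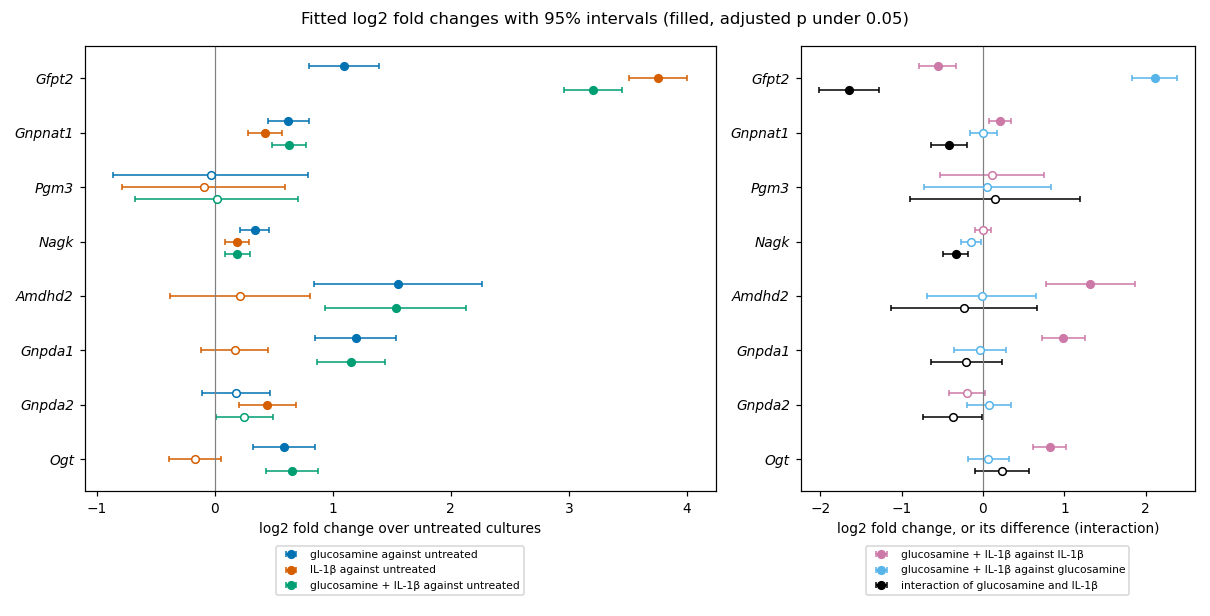
Fitted log2 fold changes of the 8 genes with 95% confidence intervals, for the comparisons with untreated cultures (left) and for both agents against either agent and the interaction (right). Filled points have an adjusted p under 0.05 and open points do not. On the left, Gfpt2 reaches 3.76 with IL-1β, and the glucosamine points of Amdhd2 and Gnpda1 lie at 1.55 and 1.19 while their IL-1β intervals include 0.

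Ogt, the transferase that spends UDP-GlcNAc on intracellular proteins, was raised by glucosamine with and without IL-1β on the brighter of its probe sets. Its brighter probe set, 1388758_at, gave 308, 346 and 324 on the untreated arrays and 492 and 487 on the glucosamine arrays. It gave 270, 279, 275 and 342 on the IL-1β arrays and 485, 520, 456 and 595 on the arrays with both agents. Every array with glucosamine was above every array without it.

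That probe set of Ogt rose 1.50-fold with glucosamine (log2 0.59 ± 0.12, limma adjusted p = 0.00576), 1.57-fold with both agents over untreated cultures (0.65 ± 0.10, adjusted p = 0.00048) and 1.76-fold with both over IL-1β alone (0.82 ± 0.09, adjusted p = 5.33e-05). IL-1β alone gave 0.892-fold (-0.17 ± 0.10, adjusted p = 0.305). Without both d arrays, the IL-1β value was 0.845-fold with an adjusted p of 0.011 (0.00623 to 0.621 over all alternatives).

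The dimmer probe set of Ogt, 1370543_at, gave 165, 158 and 158 on the untreated arrays and 208 and 214 on the glucosamine arrays. It gave 67.1, 98.1, 123 and 106 on the IL-1β arrays and 214, 218, 222 and 146 on the arrays with both agents. All IL-1β arrays were below all others. In this probe set the fall with IL-1β was 0.6-fold (log2 -0.74 ± 0.19, limma adjusted p = 0.014) and the difference of both agents over IL-1β was 2.05-fold (1.04 ± 0.18, adjusted p = 0.00106). Over untreated cultures, the 1.32-fold of glucosamine alone and the 1.23-fold of both agents did not pass (adjusted p = 0.362 and 0.329). The probe sets thus had the same sign in all comparisons with untreated cultures, but differed in which of them were called.

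Oga, the hydrolase that removes O-GlcNAc and so opposes Ogt, had 3 probe sets, and they are shown beside Ogt. On its brightest, 1395741_at, the signal was 292, 308 and 290 on the untreated arrays and 352 and 418 on the glucosamine arrays. It was 84.6, 163, 206 and 199 on the IL-1β arrays and 422, 408, 355 and 280 on the arrays with both agents. All IL-1β arrays were below the untreated arrays, and 3 of the 4 arrays with both agents were above them.

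Oga fell by 0.95 on the log2 scale with IL-1β (SE 0.26, limma adjusted p = 0.0207) and was 1.23 higher with both agents than with IL-1β alone (adjusted p = 0.00293), and the 0.37 of glucosamine alone did not pass (adjusted p = 0.657). Its other probe sets, 1370129_at and 1383025_at, had log2 values of -0.45 and -0.30 with IL-1β (adjusted p = 0.318 and 0.394). They had 0.70 and 0.51 for both agents over IL-1β (adjusted p = 0.0811 and 0.0875), and without the d arrays 1.02 and 0.75 (0.00868 and 0.000974). On 1383025_at, glucosamine alone gave 0.47 with an adjusted p of 0.306 with all arrays and 0.0283 without the d arrays. Both agents over untreated cultures gave 0.21 (adjusted p = 0.535) and, without the d arrays, 0.44 (0.018) on that probe set.

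**Figure D3:**
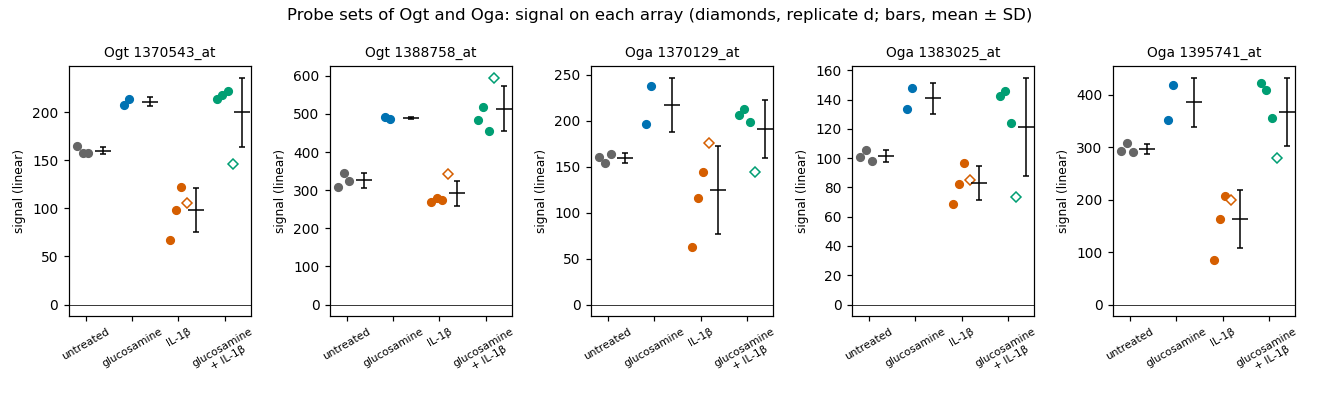
Linear signal of the 2 probe sets of Ogt and the 3 of Oga on each array, each panel with its own vertical axis from 0. Points are arrays in the order a to d, open diamonds are the replicate d arrays, and bars are the group mean ± SD. On Ogt 1370543_at the IL-1β arrays lie between 67.1 and 123, under the 158 to 165 of the untreated arrays, and on Oga 1395741_at between 84.6 and 206, under the 290 to 308 of the untreated arrays.

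Genes that feed the pathway or use its product were counted in the same way, from lists that, like the pathway itself, were chosen with earlier results known. For the counts below, the shares over all probe sets tested were 7.14% higher and 7.56% lower with glucosamine, 11.1% and 13% with IL-1β. Of 7 measured genes for sugar uptake and hexokinases, 3 were higher and 1 lower with glucosamine, and 4 higher and 1 lower with IL-1β. Hk2, the inducible hexokinase, had log2 fold changes of 1.14 with glucosamine (adjusted p = 0.0109) and 1.98 with IL-1β (3.11e-05), and Slc2a1, the basal glucose transporter, had 1.11 (2.41e-06) and 1.69 (5.02e-09). As with Gfpt2, their interactions were below 0, at -1.49 for Hk2 (adjusted p = 0.0143) and -1.65 for Slc2a1 (1.59e-06). Of 6 measured genes for glutamine and acetyl-CoA supply, none was higher and 2 were lower with glucosamine: Glul, which makes glutamine, at -0.64 (adjusted p = 0.00275), and Acss2, which makes acetyl-CoA from acetate, at -0.55 (0.0178). With IL-1β, 3 of these were lower, among them Acss2 at -0.79 (adjusted p = 0.000267), and the glutamine carrier Slc1a5 was higher at 0.74 (0.000368).

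Of 7 measured genes for UDP-GlcNAc epimerization and sialic acid synthesis, 4 were higher and none lower with glucosamine, led by Renbp, an epimerase of N-acetylhexosamines, at log2 1.22 (adjusted p = 0.00579) and Nans, a sialic acid synthase, at 0.77 (0.0031). With IL-1β none was higher and the CMP-sialic acid carrier Slc35a1 was lower, at -0.32 (adjusted p = 0.00999). Of 5 measured glycosidases and related enzymes that release GlcNAc, Naglu was higher with glucosamine (0.68, adjusted p = 0.00591) and Ctbs lower (-0.47, 0.000459), and none was called with IL-1β. A further list held genes for the carriage of UDP-GlcNAc and for steps that make products from it. Of the 19 measured, 5 were higher and 4 lower with glucosamine (7.14% and 7.56% of all probe sets tested). With IL-1β, 3 were higher and 7 lower (11.1% and 13%). Has2, a hyaluronan synthase, was the largest fall with glucosamine at -1.96 (adjusted p = 0.00256), and its signal was 47.5 to 59.0 on the untreated arrays and 11.7 and 16.6 on the glucosamine arrays. Ext1, a heparan sulfate polymerase, had the largest fall of the list with IL-1β at -1.23 (adjusted p = 9.04e-06). Piga, which starts the GPI anchor, had the largest rise with either agent, 1.29 (adjusted p = 0.0268) and 2.04 (0.000256). Its signal was low, at 10.6 to 13.6 on the untreated arrays, where the floor was 5.71. It was 28.1 and 29.0 on the glucosamine arrays and 38.1 to 74.4 on the IL-1β arrays. The list holds transferases, carriers and related proteins for separate products, and as a whole it did not lean to one direction with glucosamine.

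Of 11 measured genes of endoplasmic reticulum stress and the amino acid response, 8 were higher and none lower with glucosamine (7.14% and 7.56% of all probe sets tested). Ddit3, a transcription factor induced by stress, had a log2 fold change of 2.35 (limma adjusted p = 9.18e-05) and Hyou1, a chaperone of the endoplasmic reticulum, 2.33 (9.1e-05). With IL-1β 4 were higher and 1 lower (11.1% and 13% of all probe sets tested). Sdf2l1, a chaperone cofactor, was at 0.64 (adjusted p = 5.8e-05) and Trib3, a pseudokinase, at -0.62 (0.00682). Compared with IL-1β alone, cultures with both agents had 9 of the 11 higher and none lower, where 11.9% of all probe sets were higher and 11.4% lower.

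**Figure D4:**
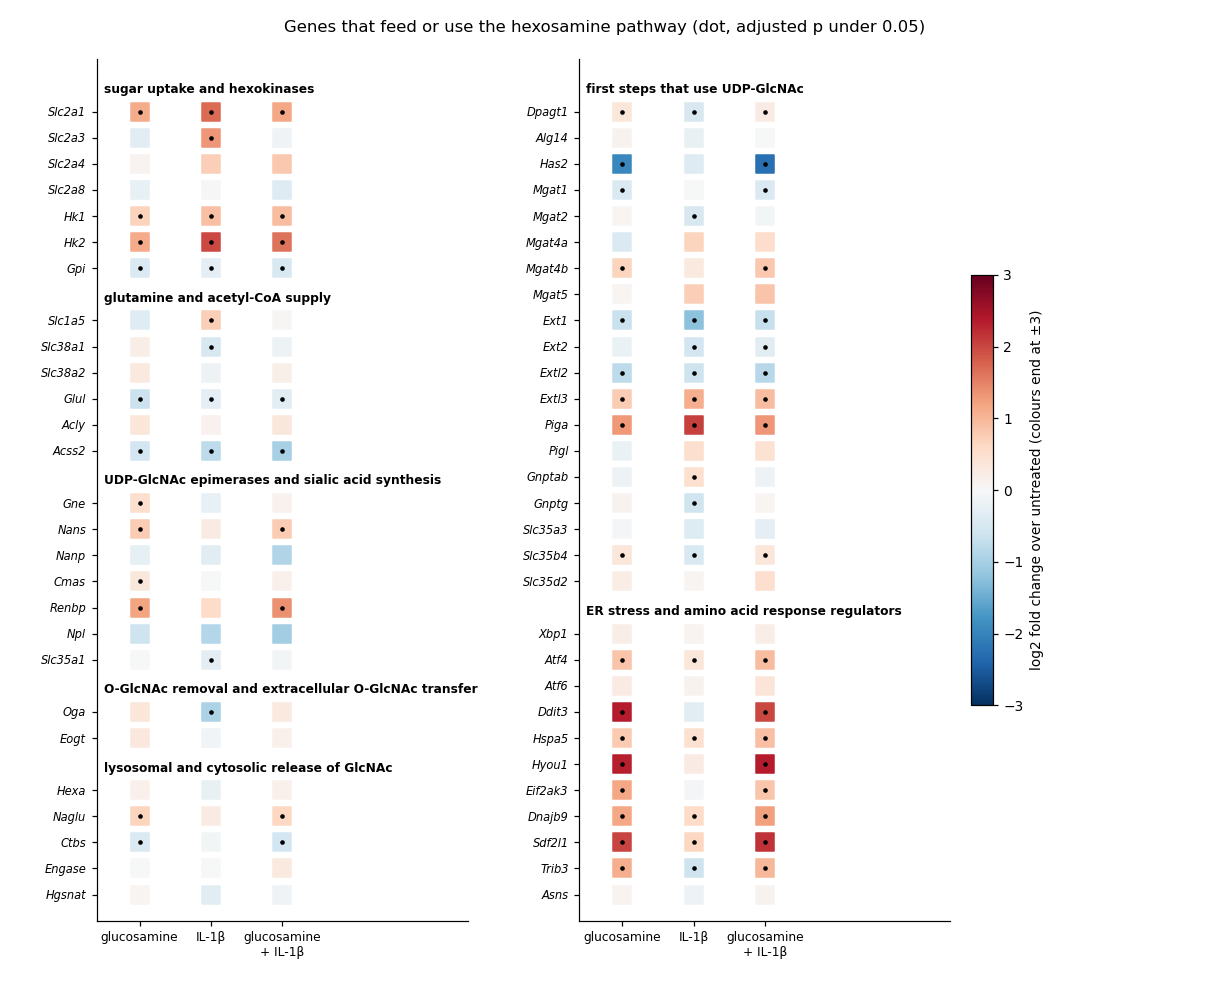
Log2 fold change over untreated cultures of the measured genes that feed or use the hexosamine pathway, grouped by list, with glucosamine, IL-1β or both. The last list holds genes of endoplasmic reticulum stress and the amino acid response, which are not genes of the pathway. Red is higher and blue lower, the colours end at ±3, and a dot marks an adjusted p under 0.05. Most genes of the endoplasmic reticulum stress list are red with glucosamine and with both agents, and Has2 is blue in the same columns, at -1.96 with glucosamine.

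The genes whose log2 signals followed those of 3 members most closely over the 13 arrays were sought among all measured genes, as a description, since the arrays fall into 4 treated and untreated groups. For Gfpt2 these were Ccl2 (Pearson r = 0.995), Ackr3 (0.991) and Znrf1 (0.988). Ccl2 is a chemokine and Ackr3 an atypical chemokine receptor. For Gnpda1 they were Acp5 (0.994), a lysosomal phosphatase, Hyou1 (0.990) and Get3 (0.987), which targets proteins to the endoplasmic reticulum. For Amdhd2 they were Vat1 (0.986), Lonp1 (0.984), a mitochondrial protease, and Ppp1r14b (0.984).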

How the data were processed

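Second-passage rat articular chondrocytes were profiled on 13 Affymetrix arrays. The deposited values are linear signal intensities, each probe set having 1 value on every array. By the account in the methods, the authors read the arrays with Microarray Suite and converted them to expression values with Probe Profiler. They scaled these globally to a common value and left out arrays that failed quality control, whereas the labels name MAS5, version 5. Some deposited signals are below 0, such as -18.1 for Cd68 on an untreated array. The group means of Col3a1 and Hapln1 nearly equal the relative signal values that the authors printed, but those of Acan and Col2a1 on their brightest probe sets do not. For Col2a1 the means were 3819 untreated and 2812 with IL-1β, where the authors printed far lower values and a larger fall. Which probe sets the printed values came from was not examined. Array means were 127 to 145, above the value that the methods name for the scaling, and 75th percentiles were 112 to 119. No further scaling was applied in the main fit, although the medians were 37.9 and 38.7 on the d arrays and 20.8 to 24.6 on the others. Groups were taken from sample titles, because the description names glucosamine for every sample.

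Of 31099 probe sets, 57 controls were left out. Intensities under 5.71, the 25th percentile over the whole table, were set to that floor before log2 was taken, which understates changes of genes near it, and 1779 probe sets that never exceeded the floor were dropped. The other 29263 were fitted in limma 3.58.1 (R 4.3.3) with a variance trend, all 4 groups in 1 fit with 9 residual degrees of freedom because glucosamine alone had 2 arrays. Tests were 2-sided, with Benjamini-Hochberg adjustment over all probe sets at 0.05. The fit was also run on simulated data with planted changes and independent noise. Those data hold no distant arrays, so the run does not show how the d arrays act on the calls. Symbols came from the platform annotation, in which 20826 probe sets carried 1 gene, 436 several and 9780 none. The number of arrays limits the precision.

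The members and all gene lists were chosen with earlier results of these data known. All members were named, and from each other pathway list, but not from the marker lists, the 2 genes with the largest change among those called with glucosamine, and likewise with IL-1β. For 3 members the 3 genes with the highest Pearson r were named. All probe sets of Oga, and marker genes called in any treated group over untreated cultures, are given beside these. Alternatives were other floors, scalings and filters, no variance trend, the replicate letter as a block, the mean over probe sets, leaving out arrays, and the methods' one-way analysis of variance with the Tukey test. Promoters were searched in Python 3.11.15, and figures were drawn with matplotlib 3.10.9.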

Additional observations from a re-analysis of the deposited data

Results flagged for a closer look

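In 20 groups of 4 arrays, of the 10 probe sets of the pathway, 7 held an array far from the others by Dixon's test, which flags about 1 group in 20 by chance. Of these arrays, 6 were replicate d of a group with IL-1β. In the IL-1β group, replicate d was at 69.6 on the brighter and 28.7 on the dimmer probe set of Pgm3 and at 342 on Ogt 1388758_at, each above the other replicates. In the group with both agents, replicate d was at 72.6 on the brighter probe set of Pgm3, above the others, and at 298 on Gnpda1 and 146 on Ogt 1370543_at, below the others. The remaining array was IL-1β replicate c, at 93.4 on Amdhd2. The d arrays also had the highest median signals (37.9 and 38.7), and the part of this in the Pgm3, Ogt and Gnpda1 values was not tested.

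The effect of IL-1β differed between cultures with and without glucosamine for 3 genes in limma's interaction term, at -1.65 for Gfpt2, -0.42 for Gnpnat1 and -0.34 for Nagk on the log2 scale.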

How the results depend on the processing

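The direction and call of most values were the same in 23 alternatives (22 for the interaction). Under quantile normalization the median log2 fold change with IL-1β over all tested probe sets went from 0.10 to 0. Of the counts of genes called, those that moved by over 1.5 times were the interaction, with 1 gene (Gfpt2) without the variance trend and 1 to 3 when arrays were left out in turn, the lowest without glucosamine replicate a, and the comparison of both agents with glucosamine, with 2 genes in the methods' test, which added Nagk. The methods' test also lost Gfpt2 and Amdhd2 with glucosamine, Gnpda2 with IL-1β, and Amdhd2 with both agents over untreated and over IL-1β. Whether the replicate letters pair the arrays could not be settled. Of 16 same-letter pairs across groups, 7 had a correlation of deviations from group means over 0.1 (from -0.17 to 0.80), the highest being that of the d arrays. Of 13 arrays, 6 agreed best with their own letter. Such deviations are exact mirror images for the glucosamine arrays. In the groups with a distant d array they tie replicates a to c together, whatever their letter. With the letter as a block, which sets the d arrays apart, Pgm3 and Ogt were called lower with IL-1β (-0.35 and -0.24), Pgm3 had -0.241 with both agents over untreated and -0.237 over glucosamine, and Amdhd2 0.041 over glucosamine. The mean over all probe sets of a gene called Ogt lower with IL-1β (-0.45). All values that changed sign were uncalled in both analyses, and the cause was not tested. For Pgm3 they were 0.053 for glucosamine and -0.036 for both agents over glucosamine with quantile normalization, -7.5e-05 for both over untreated with a common 75th percentile, -0.233 over untreated and -0.198 over glucosamine without both d arrays, and with the mean over its probe sets 0.244 for IL-1β, -0.081 for both over IL-1β and -0.064 for the interaction. For Nagk, both agents over IL-1β gave -0.0055 with quantile normalization and -0.015 without both d arrays. Over glucosamine, both agents gave -0.022 for Gnpnat1 with a common 75th percentile, 0.202 for Amdhd2, 0.082 for Gnpda1 and -0.0088 for Ogt without both d arrays, -0.016 for Ogt with the mean over probe sets, and 0.030 for Amdhd2 in the methods' test. When arrays were left out in turn, Pgm3 ranged from -0.088 to 0.019 with glucosamine, -0.361 to 0.014 with IL-1β, -0.233 to 0.131 with both over untreated, -0.139 to 0.378 over IL-1β, -0.198 to 0.167 over glucosamine and -0.103 to 0.414 in the interaction, and Nagk from -0.023 to 0.022 with both agents over IL-1β. With both agents over glucosamine, Gnpnat1 ranged from -0.068 to 0.080, Amdhd2 from -0.247 to 0.211, Gnpda1 from -0.113 to 0.082, Gnpda2 from -0.019 to 0.164 and Ogt from -0.0088 to 0.119.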
